A study of Mus musculus with 4 samples.

Results

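The genes described here are 9 members of the signalling network between germ cells and their neighbours in the testis, read by symbol from the count tables of a single-cell study of the mouse rete testis (RT), the duct system that drains the seminiferous tubules. They are 4 secreted ligands (Gdnf, Kitl, Cxcl12 and Csf1), 4 receptors or co-receptors (Gfra1, Ret, Kit and Cxcr4) and 1 transcription factor (Etv5), and all 9 were present in the gene table. There were 4 libraries of 10x Genomics 3' single-cell counts from the RT region at P14 (age 14 days), control 1, control 2, Sox17-cKO 1 and Sox17-cKO 2, each pooled from 3 pups with 5000 cells targeted. In the Sox17-cKO mice floxed Sox17 was recombined by SF1Cre, a Cre under Nr5a1 (SF1) sequences that is active in Sertoli, Leydig and other gonadal somatic cells. The records give the controls SF1Cre as well, whereas the study's methods describe floxed littermates, so whether the controls carried the Cre is not settled here. During dissociation the study discarded a supernatant that held interstitial cells, so shares of UMIs between classes describe only the cells that remained. Pups of a library cannot be separated. For genotype, p-values measure the spread between pooled libraries. Between classes, they measure the spread of the class difference over these libraries.

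GDNF binds the co-receptor GFRA1 and signals through the receptor tyrosine kinase RET, which keeps undifferentiated spermatogonia renewing, and ETV5 is one of the factors it induces. KIT ligand, encoded by Kitl, acts on the receptor KIT of differentiating spermatogonia, and KIT appears as spermatogonia leave the undifferentiated state. The chemokine CXCL12 acts on CXCR4, and CSF1 is the growth factor of macrophages and has been described as a niche factor for spermatogonia.

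The libraries held between 9388 and 13364 barcodes and between 89969877 and 107203219 unique molecular identifiers (UMIs, counts of captured RNA molecules). Cells with 1000 to 4500 detected genes were kept, 5174 to 6135 per library, with a median of 5040 to 7872 UMIs per cell in a library, and pairs of libraries shared 7 to 9 of these barcodes. Cells were grouped by clustering in which the 9 genes took no part, and clusters were named from marker lists that hold none of them, with the suffix -like. The classes used most were tubule Sertoli-like (4552 cells), Sertoli valve (SV) Sertoli-like (394), RT-like (228), peritubular myoid-like (2181), stromal-like (4455), Leydig-like (251), undifferentiated spermatogonia-like (746) and differentiating spermatogonia-like (2820). The summed level of the 9 RT markers was 4569 to 5563 CPM (the UMIs of a gene scaled to a fixed total of all UMIs of the class in a library) in RT-like cells and 21.6 to 33.2 CPM in tubule Sertoli-like cells. The SV Sertoli markers summed to 1553 to 2383 CPM in SV Sertoli-like and 190.2 to 270.6 CPM in tubule Sertoli-like cells. Markers of undifferentiated spermatogonia summed to 617.5 to 766.6 CPM in the class of that name and 47.9 to 127.5 CPM in differentiating spermatogonia-like cells. The markers of differentiating spermatogonia did not separate these classes, at 758.7 to 936.6 CPM in differentiating and 744.4 to 1186 CPM in undifferentiated spermatogonia-like cells. The count tables carry Cell Ranger 6.0.2 for both replicate 1 libraries and 6.1.2 for both replicate 2 libraries, so the replicate number coincides with a difference in processing. In RT-like cells Sox17 was at 355.5 and 311.6 CPM in the controls and 45.5 and 34.6 CPM in Sox17-cKO, a log2 change of -3.14 ± 0.33 (SE, adjusted p = 0.0179, edgeR quasi-likelihood test, 2 libraries against 2).

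On GRCm38 (GENCODE vM21) all 9 are protein-coding genes. Gdnf lies at chr15:7810846-7837575 and Kitl at chr10:100015630-100100416, both on the plus strand. Cxcl12 lies at chr6:117168535-117181367 on the plus strand and Csf1 at chr3:107741048-107760469 on the minus strand. Of the receptor genes, Gfra1 lies at chr19:58235604-58455909 and Ret at chr6:118151745-118197718, both on the minus strand. Kit lies at chr5:75574916-75656722 on the plus strand and Cxcr4 at chr1:128588199-128592293 on the minus strand. Etv5 lies at chr16:22381309-22439719 on the minus strand.

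Gdnf, the ligand for GFRA1 and RET, was highest in RT-like and peritubular myoid-like cells and lower in Sertoli-like cells. In peritubular myoid-like cells, the flat contractile cells around the tubules, its level was 16.0 and 16.9 CPM in controls 1 and 2 and 21.4 and 13.96 CPM in Sox17-cKO 1 and 2 (248 UMIs). In RT-like cells it was 11.3, 24.2, 8.27 and 28.6 CPM in the same order, on 38 UMIs, with 3 and 2 UMIs in control 1 and Sox17-cKO 1. In tubule Sertoli-like cells it was 6.64, 3.85, 5.50 and 6.40 CPM (169 UMIs), below every peritubular myoid-like library. The tubule clusters were not alike. Those of 1356 and 1119 cells had Gdnf at means of 7.64 and 6.62 CPM (93 and 65 UMIs). Those of 1137 and 940 cells had it at 0.95 and 2.27 CPM (4 and 7 UMIs), and were also lower in mean Kitl and Cxcr4. These last clusters also held fewer UMIs per cell than the first, and the part of depth or cell quality was not tested. RT-like and peritubular myoid-like levels overlapped, as did those of tubule and SV Sertoli-like cells. Gdnf was 1.73 ± 0.20 (log2, SE) higher in peritubular myoid-like than in tubule Sertoli-like cells of the same library (adjusted p = 9.9e-07) and 2.68 lower in stromal-like than in peritubular myoid-like cells (log2 difference -2.68 ± 0.19, adjusted p = 5.5e-08). It was 1.56 ± 0.39 higher on the log2 scale in RT-like than in tubule Sertoli-like cells (adjusted p = 0.00138). A UMI of Gdnf was seen in 10.0% of peritubular myoid-like cells (exact binomial 95% interval 8.81 to 11.4), 14.5% of RT-like cells (10.2 to 19.7) and 3.49% of tubule Sertoli-like cells (2.98 to 4.07). The last 2 classes had median depths of 7738.5 and 5573 UMIs. In macrophage-like cells, which should lack it, 0 of 296 had one, which allows a share of cells with a UMI of up to 1.01% (a 1-sided limit from 3 counts, median depth 6716.5 UMIs). With every cell thinned to 2000 UMIs the 3 shares were 3.03%, 4.55% and 0.778%, in the same order, after 5, 8 and 310 shallower cells were left out. Of all Gdnf UMIs in a library's retained cells, between 23.9% and 53.4% came from peritubular myoid-like and between 11% and 47.1% from tubule Sertoli-like cells. Libraries held 176 to 940 cells of the first and 893 to 1484 of the second class.

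Kitl, the ligand of KIT, was a gene of Sertoli and endothelial classes. Its level in tubule Sertoli-like cells was 364.9 and 266.3 CPM in the controls and 284.3 and 386.8 CPM in Sox17-cKO (9744 UMIs). In SV Sertoli-like cells it was 327.6, 227.6, 287.0 and 316.4 CPM, in the same range. Endothelial-like cells, of which there were 72, were at 230.8 to 353.5 CPM, and these first 3 classes in the order overlapped. Leydig-like cells followed at 110.6 to 233.5 CPM, a range that reached those of SV Sertoli-like and endothelial-like cells. Stromal-like cells were at 67.6 to 85.8 CPM. Germ classes were lowest, at a mean of 6.77 CPM in differentiating and 8.41 CPM in undifferentiated spermatogonia-like cells. The SV against tubule difference in Kitl was -0.22 ± 0.09 (log2, SE, adjusted p = 0.0569), and it passed the threshold when no filter on low counts was used, in 1 fit over all classes, without Sox17-cKO replicate 1 and at a clustering resolution of 0.8, with log2 values of -0.27, -0.49, -0.27 and -1.15. RT-like cells were 2.88 lower than tubule Sertoli-like cells on the log2 scale (log2 difference -2.88 ± 0.19, adjusted p = 1.4e-13) and peritubular myoid-like cells 3.26 lower (-3.26 ± 0.11, adjusted p = 2.5e-13). At least 1 Kitl UMI was seen in 70.3% of tubule (68.9 to 71.6) and 74.1% of SV Sertoli-like cells (69.5 to 78.4), against 5.92% of differentiating spermatogonia-like cells (5.08 to 6.86). Thinned to 2000 UMIs, the Sertoli shares were 44.5% (43.0 to 46.0) and 40.6% (35.6 to 45.8), so no order of SV and tubule can be read from them.

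Cxcl12, the ligand of CXCR4, was spread over endothelial, stromal, pericyte, Leydig and peritubular classes and close to absent from tubule Sertoli-like cells. Stromal-like cells held 53.3% to 74.4% of its UMIs in a library's retained cells, at 102.7 and 155.2 CPM in the controls and 64.9 and 135.7 CPM in Sox17-cKO (3978 UMIs). Peritubular myoid-like cells were at 52.0 and 61.5 CPM in the controls and 63.4 and 73.3 CPM in Sox17-cKO. In tubule Sertoli-like cells there were 19 UMIs over 4 libraries, a mean of 0.646 CPM. SV Sertoli-like cells had 1, 9, 0 and 1 UMIs, that is 1.04 and 18.1 CPM in the controls and 0 and 1.01 CPM in Sox17-cKO, so control 2 stood apart. The fibroblast markers summed to 694.8 CPM in the SV Sertoli-like cells of control 2 and to 64 to 375.8 CPM in those of the other libraries, and their part in its Cxcl12 level was not tested. Within libraries Cxcl12 was 6.69 ± 0.19 (log2) higher in peritubular myoid-like than in tubule Sertoli-like cells (adjusted p = 3.1e-14). There Cxcl12 reached the low-count filter only through the peritubular myoid-like sums, where it was high. It was a further 0.90 ± 0.14 higher in stromal-like than in peritubular myoid-like cells (adjusted p = 9.7e-05) and fell short of stromal-like in Leydig-like cells (-0.74 ± 0.16, adjusted p = 0.000138). Between endothelial-like libraries the level varied most, at 1246 and 377.4 CPM in the controls and 40.8 and 151.5 CPM in Sox17-cKO. The control libraries were both above the Sox17-cKO libraries, on 81, 68, 4 and 27 UMIs from 8, 24, 14 and 26 cells, and this difference was noticed after the values were seen and was not tested. The 6 pericyte markers, all detected, summed to 1308 and 344.1 CPM in the endothelial-like cells of the controls and 173.4 and 269.4 CPM in those of Sox17-cKO, the same order over the libraries as Cxcl12, and their part in the difference was not tested. Sox17 in these cells was at 507.7 and 344.1 CPM in the controls and 102.0 and 101.0 CPM in Sox17-cKO, from the same few cells. By in situ hybridization at 4 weeks of age the study describes vascular Sox17 as conserved in Sox17-cKO, and this difference was not tested.

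Csf1, the macrophage growth factor, had its highest level in peritubular myoid-like cells, at 83.1 and 69.7 CPM in the controls and 98.1 and 80.4 CPM in Sox17-cKO (1210 UMIs), above every library of every other class. Leydig-like cells were at 24.2 to 64.3 CPM and stromal-like cells at 31.2 to 51.9 CPM, ranges that overlapped. RT-like cells followed at 22.7, 19.0, 29.0 and 28.6 CPM (43 UMIs). Tubule Sertoli-like cells were near the floor with 27 UMIs in all, a mean of 0.880 CPM. Against tubule Sertoli-like cells Csf1 was 6.62 ± 0.19 (log2) higher in peritubular myoid-like (adjusted p = 3.6e-14) and 4.48 ± 0.51 higher in RT-like cells (adjusted p = 1.9e-08). In both comparisons Csf1 reached the low-count filter only through the class where it was high. It was 0.90 lower in stromal-like than in peritubular myoid-like cells (-0.90 ± 0.14, adjusted p = 0.00015). The macrophage-like cells carried the receptor gene Csf1r, at 550.7 to 1034 CPM, and Csf1 itself at 1.31 to 8.53 CPM.

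**Figure D1:**
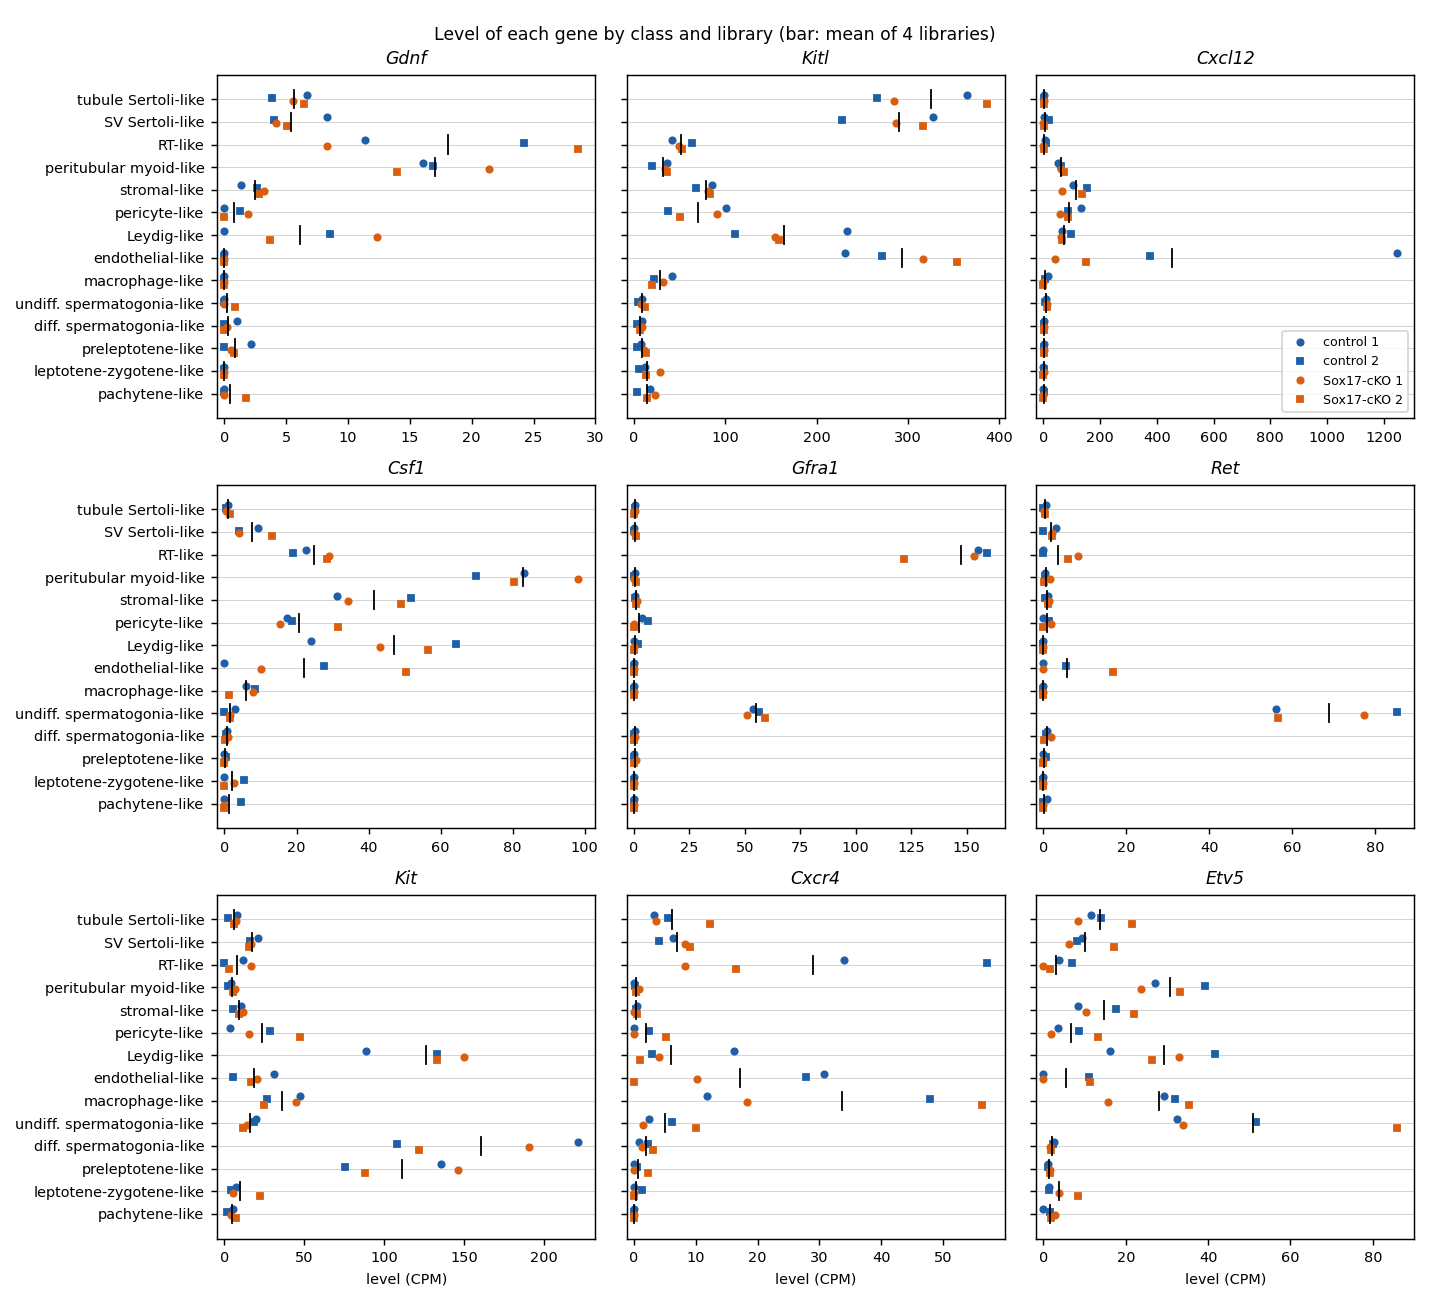
Level of each of the 9 genes in CPM (linear axes from 0, a separate scale for each gene) in the 14 named classes, with 1 point per library, blue for control, orange for Sox17-cKO, circles for replicate 1 and squares for replicate 2, and a black bar at the mean of 4 libraries. Kitl is highest in Sertoli-like and endothelial-like cells, Gdnf in RT-like and peritubular myoid-like cells, Csf1 in peritubular myoid-like cells, Gfra1 in RT-like cells (121.8 to 159.3 CPM) and Ret in undifferentiated spermatogonia-like cells.

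Gfra1, the co-receptor that binds GDNF, stood in 2 classes. In undifferentiated spermatogonia-like cells its level was 53.7 and 56.3 CPM in the controls and 50.9 and 59.2 CPM in Sox17-cKO (465 UMIs). In RT-like cells it was 155.1 and 159.3 CPM in the controls and 153.1 and 121.8 CPM in Sox17-cKO (251 UMIs). Every RT-like library was above every undifferentiated spermatogonia-like library, a description without a test. The other named classes had means of 2.42 CPM or less. Within libraries Gfra1 was 7.23 ± 0.25 (log2) higher in undifferentiated than in differentiating spermatogonia-like cells (adjusted p = 1.9e-15) and 8.22 ± 0.28 higher in RT-like than in tubule Sertoli-like cells (adjusted p = 4.4e-20). In both comparisons Gfra1 reached the low-count filter only through the class where it was high. These calls are therefore no independent support for a difference. A UMI was found in 57.0% of RT-like cells (50.3 to 63.5), 34.3% of undifferentiated spermatogonia-like cells (30.9 to 37.8, median depth 12118 UMIs) and 0.220% of tubule Sertoli-like cells (0.105 to 0.404). Thinned to 2000 UMIs, these were 25.5%, 11.3% and 0.118%, with 8, 0 and 310 cells left out.

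Germ cell markers were also counted in RT-like cells, where the 6 germ markers summed to 302.6, 55.4, 314.4 and 148.9 CPM in controls 1 and 2 and Sox17-cKO 1 and 2, against 2187 to 2551 CPM in undifferentiated spermatogonia-like cells. The markers of undifferentiated spermatogonia summed to 177.8 to 263.1 CPM there. In the 28 RT-like cells with no UMI of any germ or undifferentiated marker Gfra1 was at 115.5 CPM with a UMI in 39.3% of cells, and in the other 200 cells at 146.8 CPM with a UMI in 59.5%. In RT-like cells with a Gfra1 UMI (median depth 8917 UMIs) and without (5875 UMIs), RT markers summed to 5346 and 4783 CPM, markers of undifferentiated spermatogonia to 241.3 and 174.6 CPM, germ markers to 149.4 and 193.5 CPM and endothelial markers to 457.7 and 339 CPM. Ret, which undifferentiated spermatogonia-like cells carry at about the level of Gfra1 or above, had 6 UMIs in all RT-like cells against 251 of Gfra1. The part of germ cell RNA in the Gfra1 level of RT-like cells was not tested.

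The 250 bases before the RefSeq start of Gfra1 (chr19:58455399-58455648, minus strand, GRCm38.p6) are shown because the 2 classes that carry it differ in lineage. Those of Cxcr4 (chr1:128592300-128592549, minus strand) are shown because its genotype changes in RT-like and tubule Sertoli-like cells passed a test of their difference. That call did not hold in every alternative, as described further on. Capitals mark the SOX core ACAAT or its reverse complement ATTGT and the ETS core CCGGAA or TTCCGG, the letters bound by the families of SOX17 and ETV5, searched on both strands.
Gfra1: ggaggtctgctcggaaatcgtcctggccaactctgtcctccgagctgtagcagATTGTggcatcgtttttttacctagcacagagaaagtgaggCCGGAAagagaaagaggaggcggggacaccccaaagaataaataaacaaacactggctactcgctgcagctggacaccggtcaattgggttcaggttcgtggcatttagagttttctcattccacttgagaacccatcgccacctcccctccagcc
Cxcr4: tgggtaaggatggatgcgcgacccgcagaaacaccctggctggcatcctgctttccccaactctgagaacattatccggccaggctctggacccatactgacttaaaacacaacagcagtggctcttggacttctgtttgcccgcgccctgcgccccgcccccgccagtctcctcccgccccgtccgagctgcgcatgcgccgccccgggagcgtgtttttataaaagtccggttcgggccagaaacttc
The Gfra1 window held 1 SOX core beginning 197 bases and 1 ETS core beginning 156 bases before the start, without overlap between them, and the Cxcr4 window held neither. Of 32851 RefSeq windows of the same length, 27.7% held a SOX core and 12% an ETS core. Among the other members with a window, a SOX core was found before Csf1, Cxcl12 and 1 of the 2 Gdnf starts, and an ETS core before Kitl. The Gfra1 window lies inside the longer GENCODE span of the gene given above. These matches are letters only and say nothing of binding.

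Ret, the kinase that signals for the GDNF family, was highest among the named classes in undifferentiated spermatogonia-like cells. These held 68.0% to 83.1% of its UMIs in a library's retained cells. Cells in clusters left without a name held 0% to 17.2%, the most in Sox17-cKO 1. Barcodes that were not retained do not enter these shares. In undifferentiated spermatogonia-like cells Ret was at 56.0 and 85.2 CPM in the controls and 77.2 and 56.7 CPM in Sox17-cKO (548 UMIs). That was 6.24 ± 0.23 (log2) above differentiating spermatogonia-like cells (adjusted p = 5.5e-15). There Ret reached the low-count filter only through the undifferentiated spermatogonia-like sums, where it was high. The share of cells with a UMI was 41.8% (38.3 to 45.5), or 11.1% after thinning to 2000 UMIs, and 0.816% (0.518 to 1.22) in differentiating spermatogonia-like cells. The 6 UMIs in RT-like cells came from both Sox17-cKO libraries, 2 and 4, with 0 in both controls, where 3 UMIs would be 11.3 and 5.19 CPM. Ret was higher in RT-like than in tubule Sertoli-like cells in edgeR (3.35 ± 1.16, adjusted p = 0.0164) and missed the threshold in DESeq2 (3.42 ± 1.49, adjusted p = 0.0553). The tubule Sertoli-like sums held 7, 0, 1 and 2 UMIs in controls 1 and 2 and Sox17-cKO 1 and 2. In this comparison Ret reached the low-count filter only through the RT-like sums of Sox17-cKO, the side on which it was high. The call is therefore no independent support for a difference.

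Within the undifferentiated spermatogonia-like class the GDNF receptor pair was seen together. Of the 256 cells with a Gfra1 UMI, 60.9% also had a Ret UMI, against 31.8% of the cells without one, and median depths were alike (11953.5 and 12265.5 UMIs). Etv5 followed the same way, with a UMI in 51.2% and 17.3% of those cells. Kit did not differ in this manner, with 12.5% and 14.1%. These shares are over cells pooled from 4 libraries, are descriptions, and carry no test.

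Etv5, the GDNF-induced ETS factor, was highest in the same class but shared with somatic cells. Its level in undifferentiated spermatogonia-like cells was 32.3 and 51.7 CPM in the controls and 33.9 and 85.8 CPM in Sox17-cKO, higher in replicate 2 of both genotypes. Peritubular myoid-like (23.6 to 39.3 CPM), Leydig-like (16.1 to 41.6) and macrophage-like cells (15.7 to 35.3) overlapped this range. It was 4.50 ± 0.22 (log2) higher in undifferentiated than in differentiating spermatogonia-like cells (adjusted p = 6.4e-13). RT-like cells, with 6 UMIs, were 2.46 below tubule Sertoli-like cells (-2.46 ± 0.52, adjusted p = 0.000212).

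Kit, the receptor of KIT ligand, ran the other way through the germ line. Differentiating spermatogonia-like cells were at 221.2 and 107.7 CPM in the controls and 190.7 and 121.5 CPM in Sox17-cKO (4411 UMIs). Preleptotene-like cells, about to enter meiosis, were at 75.2 to 146.2 CPM, and leptotene-zygotene-like and pachytene-like cells at means of 9.67 and 4.59 CPM. Undifferentiated spermatogonia-like cells were at 15.9 ± 3.67 CPM (SD, 4 libraries), 3.38 below differentiating spermatogonia-like cells (log2 difference -3.38 ± 0.13, adjusted p = 1.2e-14). In the differentiating and preleptotene classes both replicate 1 libraries were above both replicate 2 libraries, whatever the genotype. The shares of cells with a UMI were 13.5% (11.2 to 16.2), 65.8% (64.0 to 67.5) and 46.0% (42.5 to 49.5) in undifferentiated, differentiating and preleptotene-like cells, and 3.65% (1.96 to 6.16) in pachytene-like cells. Thinned, the first 3 were 2.82%, 25.8% and 17.3%.

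**Figure D2:**
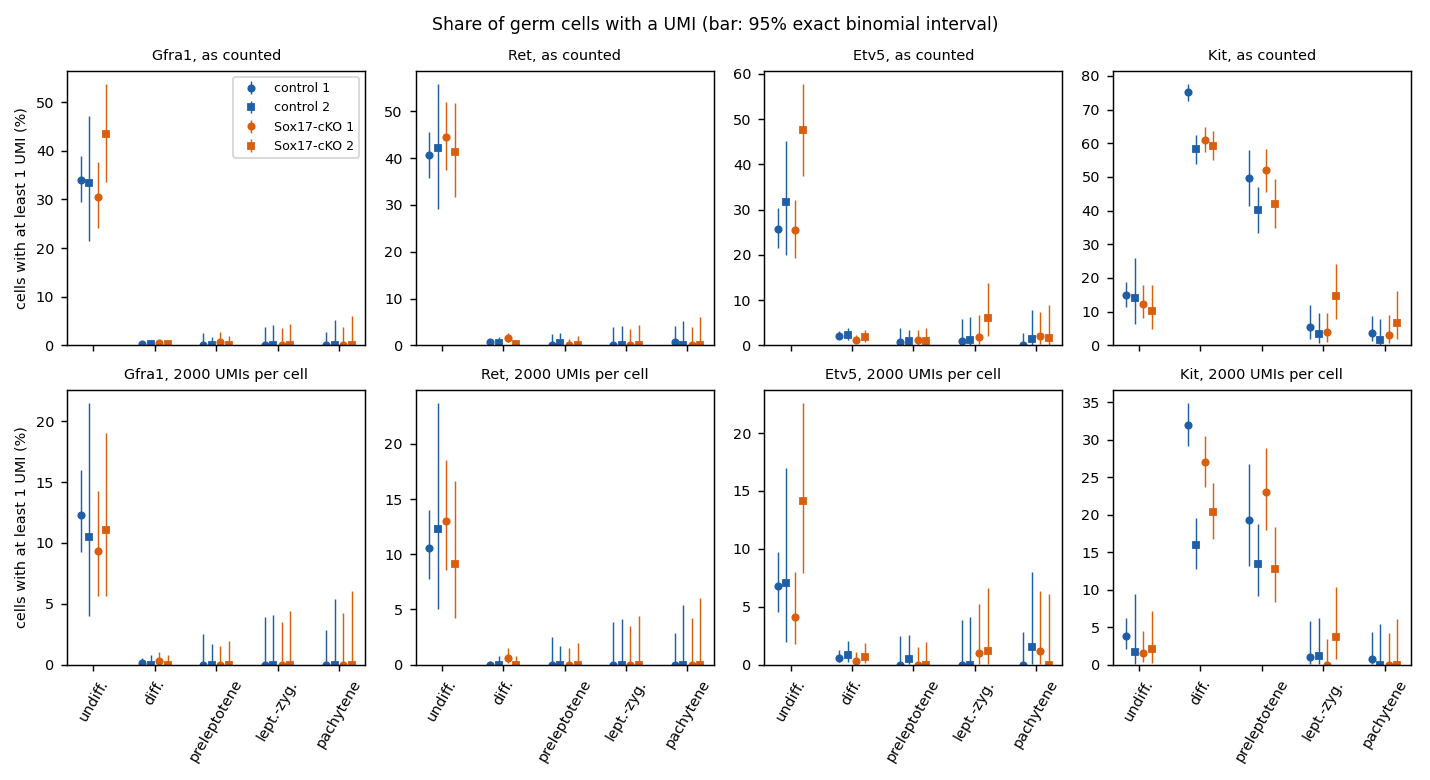
Share of cells with at least 1 UMI of Gfra1, Ret, Etv5 and Kit (percent, from 0) in 5 germ classes, as counted in the upper row and with each cell thinned to 2000 UMIs in the lower row. Points are libraries (blue control, orange Sox17-cKO) and bars exact binomial 95% intervals, which cover counting error only. Gfra1, Ret and Etv5 are near 0 outside undifferentiated spermatogonia-like cells, while Kit is highest in the differentiating and preleptotene classes.

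Outside the germ line, Kit was high in Leydig-like cells, the steroid-producing cells of the interstitium, at 88.6 and 133.3 CPM in the controls and 150.0 and 133.0 CPM in Sox17-cKO (371 UMIs). That was 3.97 ± 0.18 (log2) above stromal-like cells (adjusted p = 1.8e-21), with a UMI in 64.5% of 251 cells (58.3 to 70.5). The Leydig-like and differentiating spermatogonia-like ranges overlapped. Leydig-like cells also exceeded stromal-like cells in Kitl (0.90 ± 0.13, adjusted p = 4e-07), Gdnf (1.27 ± 0.49, adjusted p = 0.0324, on 19 UMIs) and Etv5 (0.90 ± 0.23, adjusted p = 0.00153), while Csf1 did not pass (0.20 ± 0.16, adjusted p = 0.332). The Gdnf call was lost in DESeq2 (adjusted p = 0.171) and in 1 fit over all classes (adjusted p = 0.0519), and that of Etv5 without control replicate 2 (0.78, adjusted p = 0.055). Gdnf reached the low-count filter only through the Leydig-like sums, where it was high. Of 6 members tested 5 passed, where 45.5% of all genes tested passed. Of the further pathway genes listed below, 13 were tested here, with 0 higher and 8 lower in Leydig-like cells.

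Cxcr4, the CXCL12 receptor, had few UMIs in any class and its highest means in macrophage-like (33.6 CPM, 97 UMIs) and RT-like cells (29.0 CPM, 55 UMIs). Macrophage-like levels were 11.8 and 48.0 CPM in the controls and 18.4 and 56.3 CPM in Sox17-cKO, higher in both replicate 2 libraries. Undifferentiated spermatogonia-like cells were at 2.37, 6.08, 1.41 and 10.0 CPM on 30 UMIs, 1.38 ± 0.42 (log2) above differentiating spermatogonia-like cells (adjusted p = 0.00653), and this missed the threshold without Sox17-cKO replicate 2 (1.22, adjusted p = 0.0626). A UMI was found in 16.6% of macrophage-like (12.5 to 21.3), 18.9% of RT-like (14 to 24.6) and 0.224% of stromal-like cells (0.108 to 0.412, median depth 6232 UMIs). After thinning the first 2 were 5.82% and 5.45%.

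Between undifferentiated and differentiating spermatogonia-like cells 6 of 7 members tested passed the threshold, 5 higher and 1 lower, where 64.8% of all 12912 genes tested passed. Besides those named, Cxcl12 was higher (3.02 ± 0.37, adjusted p = 4.7e-07) and Kitl did not pass (0.26 ± 0.25, adjusted p = 0.372). Gfra1, Ret and Cxcl12 would not have reached the low-count filter without the undifferentiated spermatogonia-like sums, where they were high. Their calls are therefore no independent support for a difference. Cxcl12 in undifferentiated spermatogonia-like cells was 4.56 to 11.7 CPM on 86 UMIs, against 62.6 and 114.6 CPM as means of peritubular myoid-like and stromal-like cells. The 67 cells with a Cxcl12 UMI had the peritubular markers at 276.7 CPM and the fibroblast markers at 366.6 CPM, and the 679 without had them at 58.5 and 134.1 CPM. All 7 fibroblast markers were detected in the class (117.3 to 265.8 CPM by library, against 35.9 to 231.9 CPM in differentiating spermatogonia-like cells), and their part in the Cxcl12 difference was not tested. In a list of 23 further genes of these pathways (other GDNF-family ligands and co-receptors, GDNF-responsive factors, signalling adaptors and the partners of CXCL12 and CSF1), 17 were tested, 11 were higher and 3 lower. The higher ones included Lhx1 (5.51 ± 0.34), Etv4 (4.25 ± 0.29) and Bcl6b (3.90 ± 0.35), factors described as GDNF-responsive in spermatogonia, and the lower ones were Grb2, Nrtn and Ptpn11. The median log2 difference over the list genes tested was 0.87, against -0.01 over all genes tested. It depended on which list genes entered the fit. With no filter on low counts it was 0.38 (22 tested, 9 higher and 3 lower). Without integration it was 0.41 (14 tested, 7 higher and 4 lower). The median is a description and carries no test.

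SV Sertoli-like cells were set against tubule Sertoli-like cells to ask whether the ligands of the valve at the tubule end differ. Of 6 members tested 2 passed, where 28.3% of all 11445 genes passed. Csf1 was 3.06 ± 0.53 (log2) higher (adjusted p = 2.3e-05), at 9.36, 4.03, 4.13 and 13.1 CPM in SV Sertoli-like cells on 26 UMIs. Csf1 reached the low-count filter only through the SV Sertoli-like sums, where it was high. Its call is therefore no independent support for a difference. Kit was 1.52 ± 0.31 higher (adjusted p = 0.000197), at 20.8, 16.1, 16.5 and 15.1 CPM on 51 UMIs. Gdnf (-0.08 ± 0.41), Cxcr4 (0.15 ± 0.41) and Etv5 (-0.45 ± 0.28) did not pass, with adjusted p of 0.924, 0.832 and 0.24. Of the 2 SV clusters, that of 282 cells was led by immediate-early genes such as Fos and Atf3. As means over libraries it had Csf1 at 8.36 CPM (25 UMIs) and Kit at 17.2 CPM (43 UMIs). That of 112 cells had them at 2.24 CPM (1 UMI, in control 2) and 16.7 CPM (8 UMIs). It also held fewer UMIs per cell. The Leydig markers summed to 111.3 to 165.3 CPM in SV and 11.2 to 26.5 CPM in tubule Sertoli-like cells, all 6 detected in both, and in SV cells with a Kit UMI to 215.6 CPM against 124.9 CPM in those without. In the same split the SV Sertoli markers summed to 3023 and 1838 CPM and the fibroblast markers to 495.3 and 279.7 CPM. In all 4 libraries SV exceeded tubule Sertoli-like cells in the fibroblast markers (64 to 694.8 against 31.8 to 227.1 CPM) and the peritubular markers (356.7 to 439.3 against 183.8 to 397.1 CPM). The peritubular markers summed to 491.2 CPM in SV cells with a Csf1 UMI and 392.5 CPM in those without, and the fibroblast markers to 142.9 and 322 CPM. The part of these in the Kit and Csf1 differences was not tested. When the members and the list genes took part in clustering, which left 108 SV cells, Csf1 was 2.31 higher (adjusted p = 0.121) and Kit 0.43 higher (adjusted p = 0.817), and at resolution 0.8, with 64 SV cells, Kit turned to -7.03 ± 5.22 (adjusted p = 0.455). In the pathway list 3 of 11 genes tested were higher (Pou3f1, Pik3r1 and Grb2) and 2 lower, Ackr3 (-2.53 ± 0.31), the CXCL12 scavenger receptor, and Nrtn (-1.82 ± 0.66). At resolution 0.8, 0 of 9 list genes tested passed. With the members and list genes in clustering, 0 of 9 were higher and 1 was lower.

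RT-like cells differed from tubule Sertoli-like cells in 7 of 9 members, where 53.2% of all 12433 genes passed. Gfra1, Csf1, Ret, Cxcr4 and Gdnf were higher, Kitl and Etv5 were lower, and Cxcl12 (2.00 ± 0.93, adjusted p = 0.0711) and Kit (-0.20 ± 0.59, adjusted p = 0.796) did not pass. The call of Ret came only through the few UMIs of the Sox17-cKO RT-like sums, as given above. Gfra1 and Csf1 likewise reached the low-count filter only through the RT-like sums, where they were high. Their part in the count of 7 of 9 is therefore no independent support for a difference. Cxcl12 passed once the highest doublet scores were removed (2.34, adjusted p = 0.0394). Cxcr4 was 1.91 ± 0.43 higher (adjusted p = 0.000396) and missed the threshold without control replicate 2 (1.30, adjusted p = 0.0597). Against SV Sertoli-like cells 5 of 5 members tested passed, where 46.9% of all 8541 genes did. Gfra1 was 7.996 ± 0.423 higher, Cxcr4 1.86 ± 0.46, Gdnf 1.74 ± 0.51 and Csf1 1.52 ± 0.42, and Kitl was lower (-2.46 ± 0.19), with adjusted p of 1.5e-14, 0.00154, 0.00594, 0.00422 and 2.6e-11. In DESeq2 those of Cxcr4 (0.0718), Gdnf (0.124) and Csf1 (0.0506) missed the threshold. Gfra1, Cxcr4, Gdnf and Csf1 reached the low-count filter only through the RT-like sums, where they were high. The count of 5 of 5 is therefore no independent support for a difference. With no filter on low counts 7 of 9 members passed, where 27% of all genes did. Of the pathway list 6 of 13 genes tested were higher and 3 lower than in tubule Sertoli-like cells. Among the higher were Ncam1 (7.18 ± 0.27), an adhesion molecule that can also bind GDNF, at 155.1 to 268.9 CPM in RT-like cells, and Nrtn (2.82 ± 0.35), encoding the GDNF relative neurturin, at 15.1, 43.3, 49.6 and 54.1 CPM.

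Peritubular myoid-like cells differed from tubule Sertoli-like cells in 6 of 7 members tested, where 73.4% of all 13174 genes passed. Cxcl12, Csf1, Gdnf and Etv5 (1.32 ± 0.15, adjusted p = 8.7e-07) were higher, and Kitl and Cxcr4 (-4.55 ± 0.48, adjusted p = 3.9e-07) lower. Cxcl12 and Csf1 reached the low-count filter only through the peritubular myoid-like sums, and Cxcr4 only through the tubule Sertoli-like sums. These were the sides on which they were high, so their calls are no independent support for a difference. Stromal-like cells differed from peritubular myoid-like cells in all 6 members tested, where 39.8% of all 12718 genes passed. Kitl (1.36 ± 0.11), Cxcl12 and Kit (0.88 ± 0.19) were higher in stromal-like cells, and Gdnf, Etv5 (-1.04 ± 0.14) and Csf1 were lower. The fibroblast markers summed to 30340 to 45190 CPM in stromal-like and 4044 to 5862 CPM in peritubular myoid-like cells. The pathway list had 9 higher and 3 lower of 13 tested in the first comparison, and 8 higher and 3 lower of 15 in the second, the former including the co-receptor genes Gfra2 (6.12 ± 0.51) and Gfra4 (4.91 ± 0.29).

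**Figure D3:**
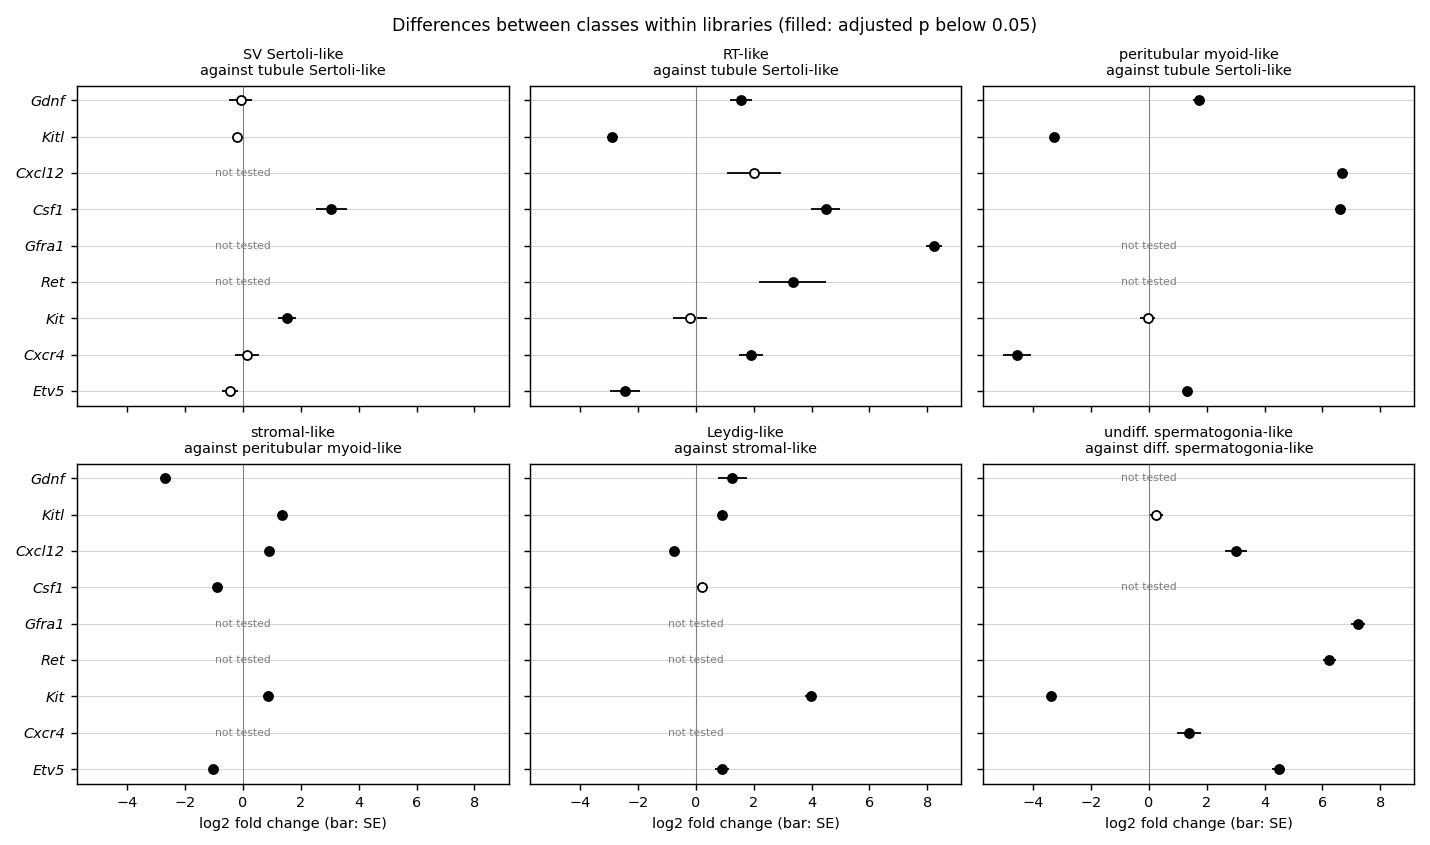
Log2 fold change of each member between 2 classes of the same library, with its SE, in 6 comparisons (edgeR, library as a block, 4 libraries). Filled points have an adjusted p below 0.05, and a gene with too few UMIs to be fitted is marked as not tested. Gfra1 is 8.22 higher in RT-like than in tubule Sertoli-like cells and 7.23 higher in undifferentiated than in differentiating spermatogonia-like cells, where Kit is 3.38 lower.

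Sox17-cKO was compared with control within 7 classes, to ask whether the niche ligands and their receptors change with loss of SOX17 in the RT. No member passed the threshold in any of them in edgeR without a term for the replicate number: 0 of 5 tested in RT-like, 0 of 2 in SV Sertoli-like, 0 of 5 in tubule Sertoli-like, 0 of 7 in undifferentiated and 0 of 5 in differentiating spermatogonia-like, and 0 of 6 in each of peritubular myoid-like and stromal-like cells. Over all genes 0.0882% passed in RT-like cells (6 of 6799) and 0% in each of the other 6 classes. At an unadjusted p under 0.05 there were 391 genes in RT-like cells and 31 to 107 in the others. DESeq2 called 17 genes in RT-like and 1 in stromal-like cells, 0 in the other classes, and no member. The pathway list had 0 genes past the threshold in each class, of 8 to 15 tested.

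The largest member difference by genotype in the 7 classes tested was that of Cxcr4 in RT-like cells, at 34.0 and 57.1 CPM in the controls and 8.27 and 16.5 CPM in Sox17-cKO, from 9, 33, 2 and 11 UMIs. The groups did not overlap, nor did they for Gfra1, Ret, Cxcl12, Etv5 and Csf1 in RT-like cells. The share of all genes without overlap was not counted, so this does not set Cxcr4 apart. Control was higher within each replicate number, but the log2 change of -1.79 ± 0.51 did not pass (adjusted p = 0.442). With the replicate number, and so the Cell Ranger version, as a block it was -1.85 ± 0.49 and passed (adjusted p = 0.00653), in a fit where 4.04% of the 6799 genes passed and no other member did. In tubule Sertoli-like cells Cxcr4 was at 3.17 and 5.49 CPM in the controls and 3.56 and 12.3 CPM in Sox17-cKO (0.78 ± 0.61, adjusted p = 0.9999). The difference between these 2 genotype changes, tested as an interaction, was -2.72 ± 0.69 (adjusted p = 0.0212), and it was the only one of 9 members that passed, where 0.483% of 12433 genes did. It missed the threshold without control replicate 1 (-2.67, adjusted p = 0.0804), control replicate 2 (-2.86, 0.325) or Sox17-cKO replicate 2 (-2.06, 0.851), and DESeq2 gave it no adjusted p. The 9 macrophage markers summed to 124.8 and 380.8 CPM in the RT-like cells of the controls and 107.6 and 90.2 CPM in those of Sox17-cKO, against 14810 to 23790 CPM in macrophage-like cells, with 7 of 9 detected and the macrophage genes Lyz2 and Mrc1 at 0 UMIs in all 4 libraries. Csf1r, at 550.7 to 1034 CPM in macrophage-like cells, had 0 UMIs in RT-like cells in any library. The 43 RT-like cells with a Cxcr4 UMI had the macrophage markers at 355.5 CPM and the other 185 at 148.2 CPM. The endothelial markers summed to 533.3 and 509 CPM in the RT-like cells of the controls and 388.9 and 303.8 CPM in those of Sox17-cKO. They summed to 480 CPM in RT-like cells with a Cxcr4 UMI and 400.5 CPM in those without. Endothelial-like cells had Cxcr4 at 30.8 and 27.8 CPM in the controls and 10.2 and 0 CPM in Sox17-cKO, on 8 UMIs. The part of the macrophage and endothelial markers in the Cxcr4 difference was not tested.

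The genotype differences of the other receptors and ligands did not pass either, where they were tested. Gfra1 changed by -0.26 ± 0.29 (log2) in RT-like and -0.08 ± 0.29 in undifferentiated spermatogonia-like cells, and Ret by -0.11 ± 0.33 in the latter. Kit in undifferentiated spermatogonia-like cells was 19.6, 18.3, 14.1 and 11.7 CPM in controls 1 and 2 and Sox17-cKO 1 and 2. Its change of -0.63 ± 0.36 did not pass and ranged from -0.77 to -0.54 with 1 library left out at a time. In differentiating spermatogonia-like cells Kit changed by -0.10 ± 0.36, with opposite signs within the 2 replicate numbers (-0.21 and 0.17 as log2 ratios of CPM). Gdnf changed by 0.11 ± 0.66 in RT-like and -0.04 ± 0.30 in peritubular myoid-like cells, and Kitl by -0.03 ± 0.31 in tubule Sertoli-like cells. The study describes slightly higher Gdnf and Kitl in its RT cells of Sox17-cKO. In RT-like cells Kitl was at 41.6 and 64.05 CPM in the controls and 49.65 and 52.64 CPM in Sox17-cKO. Its log2 ratios within the replicate numbers had opposite signs (0.255 and -0.283). Cxcl12 changed by -0.43 ± 0.40 in stromal-like cells, where both replicate numbers gave a lower value in Sox17-cKO (-0.66 and -0.19). In peritubular myoid-like cells Cxcl12 went the other way without passing, at 52.0 and 61.5 CPM in the controls and 63.4 and 73.3 CPM in Sox17-cKO. With 1 library left out at a time the Cxcl12 change in stromal-like cells ranged from -1.051 to -0.008 and that of Gfra1 in RT-like cells from -0.41 to -0.07. None of these genes is shown to be unchanged, and the sums of RT-like cells held 241710 to 664875 UMIs per library.

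**Figure D4:**
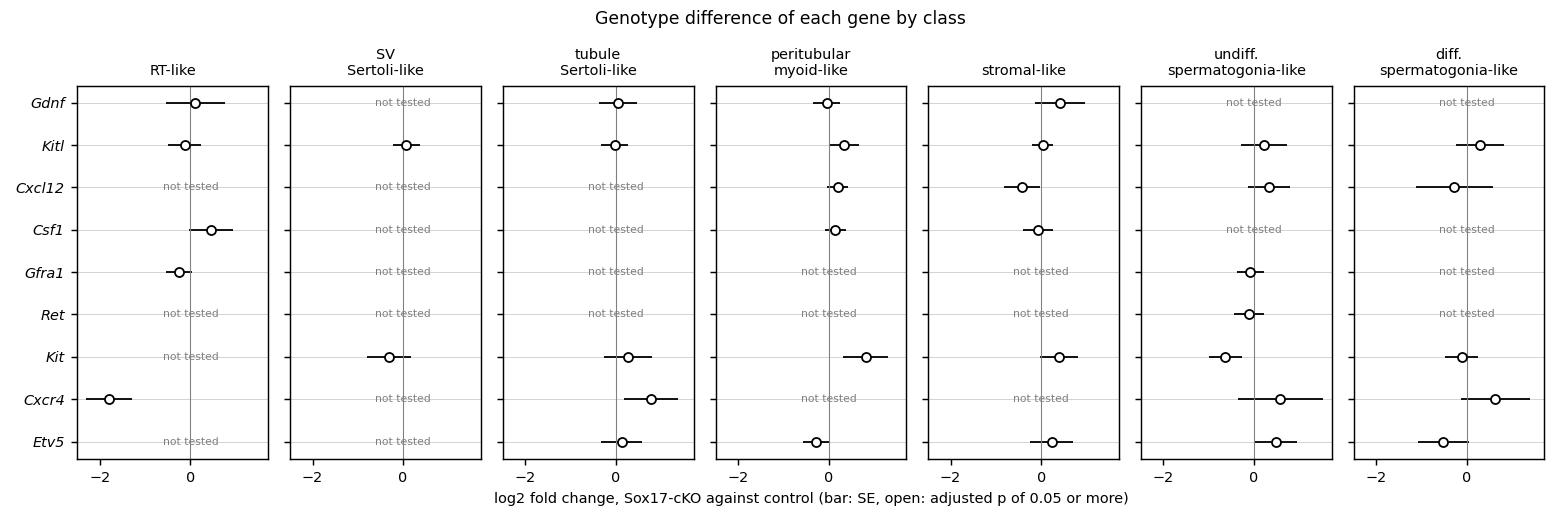
Log2 fold change of each member between Sox17-cKO and control, with its SE, in 7 classes (edgeR, 2 libraries against 2). All points are open, that is, none has an adjusted p below 0.05, and the lowest is Cxcr4 in RT-like cells at -1.79.

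The genes most like each member were taken by Pearson's r of log2(CPM + 1) over the means of 14 classes, among 13378 genes at 10 CPM or more in at least 1 class, as a description. For Gfra1 these were Large2 (0.959), Capsl (0.930) and Smim22 (0.923), and for Ret Etv4 (0.948), Glis3 (0.930) and Gm7967 (0.918). Kitl was most like Slco3a1 (0.947), Mcfd2 (0.940) and Jam2 (0.939), and Gdnf most like 2700046A07Rik (0.968), Nt5dc3 (0.912) and Mmd2 (0.912). Cxcl12 had Ppic (0.974), Hoxd10 and Gypc (0.947 each), and Csf1 had Bag3 (0.963), Tgfbr3 (0.956) and Thrb (0.955). The likeness was weaker for Kit, led by Nsf (0.831), Cuta (0.819) and Mcm2 (0.802), and for Etv5, whose likest genes included Gsto1 (0.814) and Rin2 (0.8003). Cxcr4 was most like Il4ra (0.917), Tpd52 (0.912) and Ubash3b (0.890).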

How the data were processed

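UMI counts per gene and cell, deposited by the authors as 1 Cell Ranger matrix per library (10x 3' libraries, alignment with STAR inside Cell Ranger; versions 6.0.2 and 6.1.2 in the matrix headers; genome mm10, GRCm38), were used as deposited, and matrices that aggregate the same libraries were not used. Cells with 1000 to 4500 genes were kept. No limit was set on mitochondrial UMIs, where the study set 1%. Libraries were integrated and clustered in Seurat 5.3.0 (2000 variable genes, 20 principal components, resolution 0.4) with the 9 genes, 23 pathway genes and Sox17 left out. Scrublet in Scanpy 1.11.5 called 0 of 12262 and 8 of 13364 barcodes in the replicate 1 libraries and 330 of 10987 and 208 of 9388 in the others, which at the low end means that it did not work, so no cell was removed as a doublet and removal of the highest scores was an alternative.

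Sums of UMIs over the cells of a class in each library were tested with the edgeR 4.0.16 quasi-likelihood F test in R 4.3.3 (TMM scaling, filterByExpr, 2-sided, Benjamini-Hochberg over all genes tested, threshold 0.05). Genotype was tested with 2 libraries against 2 and no covariate, classes with the library as a block, and the difference of 2 genotype changes as an interaction. CPM, shares of cells and exact binomial 95% intervals are descriptions, and intervals cover counting error only. Thinning drew 2000 UMIs per cell without replacement, leaving out shallower cells. The scripts were tested on simulated counts. The alternatives were DESeq2 1.42.0, no low-count filter, each library left out, the replicate number as a block, 1 fit over all classes, removal of high doublet scores, cells below 10% mitochondrial UMIs, and clustering without integration, at resolution 0.8 or with the left-out genes kept. Coordinates are from GENCODE vM21 and promoter windows from RefSeq (GRCm38.p6), which held 8 of the 9 genes. The text names the 9 genes, Sox17, pathway genes past the threshold, and for each member the 3 genes most like it, of which 1 is not reported here. The members and lists were chosen with earlier results of these data known, and the rules that name clusters, including the SV class, were settled after the clusters were seen.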

Additional observations from a re-analysis of the deposited data

Results flagged for a closer look

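The change of Cxcr4 between Sox17-cKO and control in RT-like cells differed from that in tubule Sertoli-like cells by -2.72 on the log2 scale (interaction term, SE 0.69, adjusted p = 0.0212, edgeR quasi-likelihood test). It missed the threshold without control replicate 1 (adjusted p = 0.0804), control replicate 2 (0.325) or Sox17-cKO replicate 2 (0.851), passed it without Sox17-cKO replicate 1, and had no adjusted p in DESeq2. Cxcr4 was lower in Sox17-cKO in RT-like cells, with 9 and 33 UMIs in the controls and 2 and 11 in Sox17-cKO, and the change in RT-like cells alone did not pass (adjusted p = 0.442), but passed with the replicate number as a block (-1.85, adjusted p = 0.00653), where 4.04% of all genes tested passed. The macrophage markers moved in the same direction in RT-like cells, at 124.8 and 380.8 CPM in the controls and 107.6 and 90.2 CPM in Sox17-cKO, and stood at 355.5 CPM in RT-like cells with a Cxcr4 UMI and 148.2 CPM in those without. Of the 9 macrophage markers 7 were detected in RT-like cells, and Lyz2 and Mrc1, as well as Csf1r outside the list, had 0 UMIs there. The endothelial markers were also lower in the RT-like cells of Sox17-cKO, at 533.3 and 509 CPM in the controls and 388.9 and 303.8 CPM in Sox17-cKO. The part of both lists was not tested.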

How the results depend on the processing

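Alternatives for single genes were counted for 38 results of class comparisons and 10 genotype results chosen by name. The 38 were those called in the main fit, with Kitl in SV against tubule Sertoli-like cells added. Calls gained elsewhere, such as Cxcl12 in RT-like against tubule Sertoli-like cells, are outside the count. Alternatives in which a gene was not fitted or had no adjusted p are also outside it, and were not counted as lost. Of 439 alternative values for single genes in class comparisons 423 kept direction and side of the threshold, 11 lost the call, 4 gained it and 1 reversed. Of 113 for single genes by genotype 100 kept both, 1 gained a call and 12 reversed, and of 173 counts of genes 131 stayed within 1.5 times. Genes past the threshold by genotype in RT-like cells numbered 17 in DESeq2, 99 with no filter on low counts, 275 with the replicate number as a block and 16 below 10% mitochondrial UMIs. The block gave 1 in SV Sertoli-like, 5 in undifferentiated and 4 in differentiating spermatogonia-like and 30 in peritubular myoid-like cells. No filter gave 2 in each of tubule Sertoli-like, undifferentiated spermatogonia-like and peritubular myoid-like cells, and 8 in each of differentiating spermatogonia-like and stromal-like cells, where DESeq2 gave 1. SV against tubule Sertoli-like gave 1787 without integration, 765 at resolution 0.8 and 1031 with the left-out genes kept. RT-like against SV Sertoli-like gave 1920 at resolution 0.8, stromal-like against peritubular myoid-like 3152 in 1 fit over all classes, and the interaction 15 in DESeq2.

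Same-numbered libraries deviated together in the genotype classes (correlations of 0.326 to 0.733), and the number coincides with the Cell Ranger version, but the labels name no shared litter, batch or day and there are only 2 pairs, so the numbers were not taken to pair the samples. Under that block Cxcr4 in RT-like cells was at -1.85 (adjusted p = 0.00653) and Ret in undifferentiated spermatogonia-like cells reversed to 0.021. Kitl by genotype in tubule Sertoli-like cells reversed to 0.067 below 10% mitochondrial UMIs, and Kit in SV against tubule Sertoli-like cells to -7.03 at resolution 0.8. The cause was not tested.

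With each library left out in turn, the lone library of its genotype being assumed to vary like the others, genotype counts ranged from 11 to 106 in RT-like, 5 to 17 in SV and 0 to 25 in tubule Sertoli-like, 0 to 16 in undifferentiated and 0 to 20 in differentiating spermatogonia-like, 2 to 13 in peritubular myoid-like and 0 to 14 in stromal-like cells. Log2 changes that turned sign were Gdnf in RT-like (-0.20 to 0.50) and peritubular myoid-like (-0.29 to 0.27), Kitl in tubule Sertoli-like (-0.29 to 0.18), Ret (-0.45 to 0.20) and Gfra1 (-0.214 to 0.051) in undifferentiated and Kit in differentiating spermatogonia-like cells (-0.53 to 0.50). The Cxcr4 interaction ranged from -2.86 to -2.06.

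After thinning to 2000 UMIs the shares of cells with a UMI were lower in each class described. They were 25.5% for Gfra1, 4.55% for Gdnf and 5.45% for Cxcr4 in RT-like, 11.3% for Gfra1, 11.1% for Ret and 2.82% for Kit in undifferentiated and 25.8% for Kit in differentiating spermatogonia-like cells. Kitl was at 44.5% in tubule and 40.6% in SV Sertoli-like, Gdnf at 3.03% in peritubular myoid-like and Cxcr4 at 5.82% in macrophage-like cells. Depth limits what can be said of genes with few UMIs, such as Ret in RT-like cells, where 5 of 228 cells had one.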
